A study of Mus musculus with 28 samples.

Results

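The 10 genes described here encode lysosomal proteases: the cathepsins Ctsa, Ctsb, Ctsc, Ctsd, Ctsf, Ctsh, Ctsl, Ctss and Ctsz, and legumain, Lgmn. They were listed by symbol, and the list was chosen with earlier results of these data known. Each symbol matched 1 Ensembl identifier among the 55414 genes of the deposited tables. All 10 passed the filter on low counts that left 12424 genes for testing.

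RNA of whole mouse brain was measured in 28 libraries by a 3′ tag protocol (QuantSeq), in which each transcript is read near its polyadenylated end. The mice went through the cuprizone model, in which a copper chelator in the diet kills oligodendrocytes and strips myelin, and myelin returns after it is withdrawn. Each of the 4 groups held 7 libraries. Demyelination libraries came from TNFR1ff mice, which carry a floxed gene for the TNF receptor TNFR1 and were backcrossed onto C57BL/6, at the stage coded CPZ5 and called the peak of myelin loss. Knockout libraries came from mgTNFR1KO mice (Cx3cr1-CreER.Tnfr1ff) at the remyelination stage, coded CPZ6+1, whose microglia lost TNFR1 through tamoxifen given in a therapeutic scheme. Remyelination control libraries came from TNFR1ff mice at CPZ6+1, and naive libraries came from TNFR1ff mice at CPZ0. The floxed allele was thus shared by all 4 groups. Age, sex, the unit of the stage codes and any tamoxifen given to the controls are not given in the labels used here. The Cx3cr1 promoter is active in microglia and also in border macrophages and blood monocytes. The labels speak of samples and not of separate animals, so p-values measure the spread between these samples.

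Lysosomal proteases are made as inactive precursors, carried to the lysosome mostly by mannose 6-phosphate receptors and activated in its acid interior, where they break down proteins taken up by endocytosis, phagocytosis or autophagy. Most cathepsins are cysteine proteases held in check by cystatins, whereas cathepsin D is an aspartic protease and cathepsin A a serine carboxypeptidase. In the brain they are found in many cell types, and microglia, the phagocytes that clear myelin debris, are rich in them, cathepsin S above all.

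Library totals ranged from 1522928 to 3137262 counts, and 3 counts, taken as the floor of detection, corresponded to between 0.956 and 1.97 CPM, counts scaled to a common library size. Since a 3′ tag gives each transcript a read near its end whatever its length, CPM values were compared between genes without a length correction. The gene with the most counts over all libraries together took between 1.33 and 25.54% of the counts of a library. These extremes were knockout library 1 and naive library 1. As a check of the targeted gene, Tnfrsf1a averaged 21.9 ± 4.18 CPM in knockout libraries and 23.0 ± 4.43 CPM in remyelination controls (SD, n = 7 each), a log2 fold change of -0.05 (adjusted p = 0.962). Its 3′ tag may lie outside the deleted part and other brain cells express it, so this value checks nothing about the deletion.

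The promoters of 8 of the 10 genes could be read from RefSeq on build GRCm38.p6, as the 250 bases before the annotated start. They are shown for Ctsd, Ctsl, Ctss and Ctsz, which rose in demyelination, to set their motif content side by side. Capitals mark matches, on either strand, to CACGTG (the core of the E-box and of the CLEAR element bound by the TFEB family, regulators of lysosomal genes), to its extension TCACGTGA and to GAGGAA (the ETS core bound by PU.1, a myeloid factor). The letters TCACGTGA contain CACGTG. The windows lie at chr7:142387828-142388077 on the minus strand for Ctsd, at chr13:64370521-64370770 on the minus strand for Ctsl, at chr3:95526536-95526785 on the plus strand for Ctss and at chr2:174439040-174439289 on the minus strand for Ctsz.
Ctsd: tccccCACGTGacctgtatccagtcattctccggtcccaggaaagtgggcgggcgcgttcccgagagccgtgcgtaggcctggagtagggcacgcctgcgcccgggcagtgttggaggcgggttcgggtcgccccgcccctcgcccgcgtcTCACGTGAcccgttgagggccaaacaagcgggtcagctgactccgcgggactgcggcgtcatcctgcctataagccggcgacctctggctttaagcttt
Ctsl: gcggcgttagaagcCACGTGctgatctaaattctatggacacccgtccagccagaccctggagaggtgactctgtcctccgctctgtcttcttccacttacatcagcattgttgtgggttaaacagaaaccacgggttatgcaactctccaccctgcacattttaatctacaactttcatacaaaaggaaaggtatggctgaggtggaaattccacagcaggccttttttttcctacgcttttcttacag
Ctss: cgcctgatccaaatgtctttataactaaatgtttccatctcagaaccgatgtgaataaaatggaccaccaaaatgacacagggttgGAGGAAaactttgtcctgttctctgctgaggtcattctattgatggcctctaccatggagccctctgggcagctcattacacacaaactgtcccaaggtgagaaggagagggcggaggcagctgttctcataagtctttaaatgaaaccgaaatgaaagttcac
Ctsz: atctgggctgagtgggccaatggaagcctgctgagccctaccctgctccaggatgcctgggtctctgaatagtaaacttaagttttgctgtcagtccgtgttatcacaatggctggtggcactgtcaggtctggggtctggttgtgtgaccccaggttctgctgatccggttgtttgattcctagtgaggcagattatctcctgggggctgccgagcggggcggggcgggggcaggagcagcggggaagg
In the Ctsd window CACGTG lay at 245 and 98 bases before the start, the second of them within TCACGTGA. The Ctsl window held CACGTG at 236 bases and the Ctss window GAGGAA at 164 bases before the start, while the Ctsz window held none of the 3 motifs. Among the members not shown, TCACGTGA lay 13 bases before one of the annotated starts of Ctsa, CACGTG lay 79 bases before the start of Ctsf and 49 bases before one of the starts of Lgmn, and the Ctsc window held GAGGAA at 196 and 149 bases. Over 32851 RefSeq windows of the same length, 6.02% held CACGTG, 0.785% TCACGTGA and 23.3% GAGGAA. These matches describe the letters of a window and not binding.

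The comparison of demyelination with naive brains asked which transcripts differed at the height of myelin loss. Of the 10 proteases, 6 were higher in demyelination at an adjusted p under 0.05 in edgeR's quasi-likelihood test and 0 were lower, against 2.0% of all 12424 genes called in either direction (1.30% called higher and 0.700% lower). With library totals in place of TMM scaling, 190 of 249 called genes were higher, against 162 of 249 with TMM, and the member count was unchanged at 6. The 6 were Ctsh, Ctss, Ctsd, Ctsz, Ctsb and Ctsl. For each of these 6 the lowest demyelination library lay above the highest naive library, which was so for 0.910% of all genes tested. The median log2 fold change of the 10 was 0.63, and that of all genes tested was -0.0053. The other 4 (Ctsa, Lgmn, Ctsc and Ctsf) had positive fold changes that did not pass the test.

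**Figure D1:**
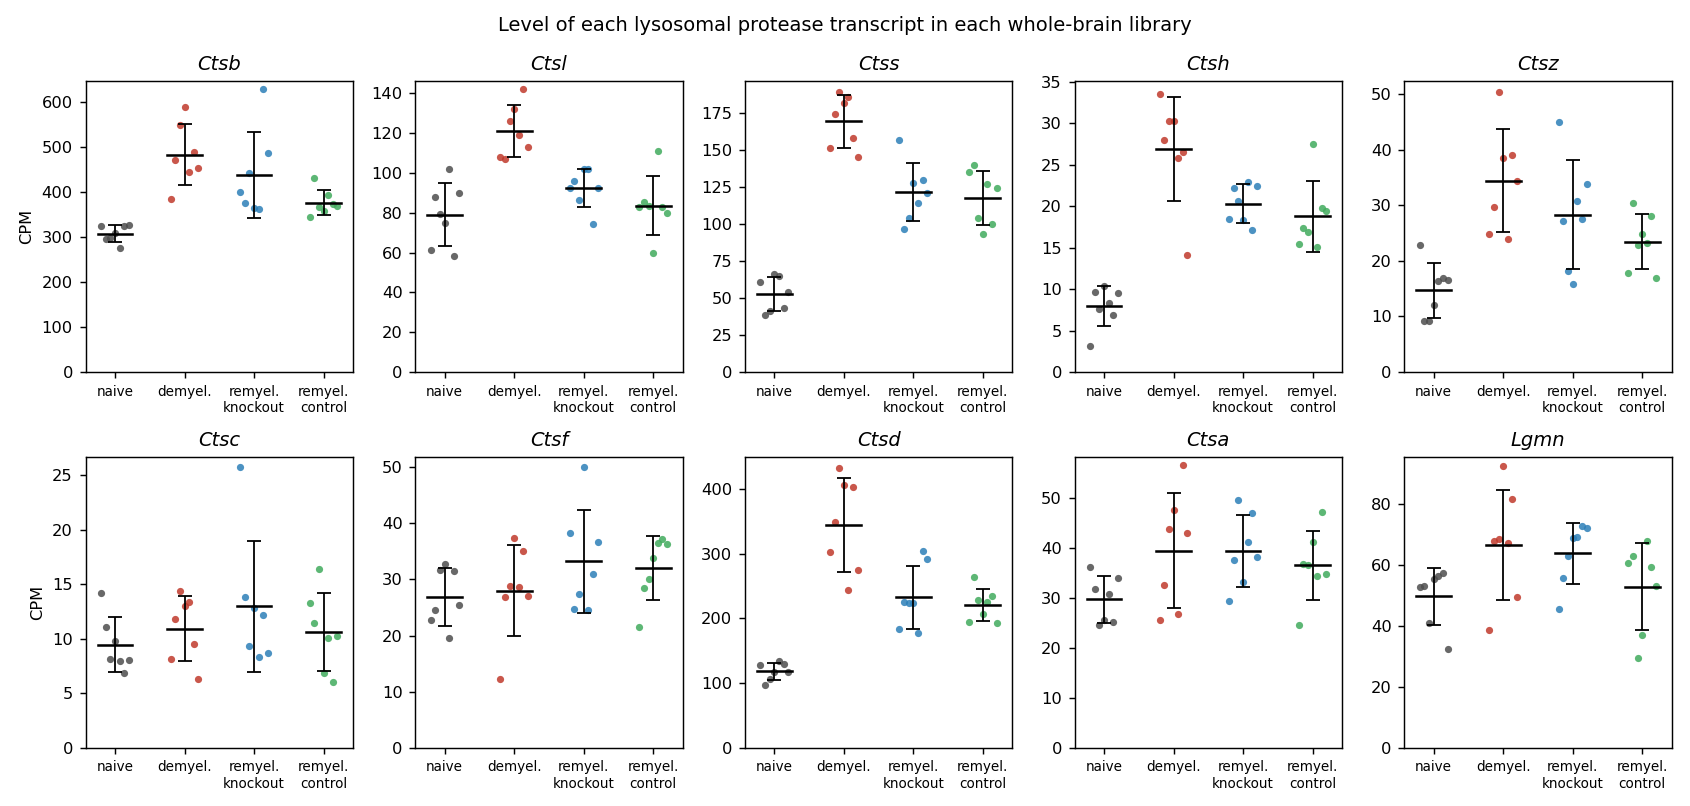
Level of each of the 10 protease transcripts in CPM in every library (points), with the mean and SD of each group of 7 (black). For Ctsb, Ctsl, Ctss, Ctsh, Ctsz and Ctsd the demyelination points all lie above the naive points, whereas those of Ctsc, Ctsf, Ctsa and Lgmn overlap.

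Among the cysteine endopeptidases, Ctss (ENSMUSG00000038642.11, chromosome 3) encodes cathepsin S, which trims the invariant chain of MHC class II and stays active at neutral pH. Its lowest, median and highest levels were 38.4, 54.1 and 66.5 CPM in naive libraries, 145, 174 and 189 CPM in demyelination, 96.7, 121 and 157 CPM in the knockout and 93.0, 124 and 140 CPM in remyelination controls. Demyelination libraries lay above remyelination controls, and those above naive libraries, with no overlap at either step. Demyelination over naive gave a log2 fold change of 1.68 (SE 0.126, 95% interval 1.43 to 1.94, adjusted p = 7.89e-13), or 3.21-fold. In remyelination Ctss was still higher than in naive brains (log2 1.17, SE 0.126, adjusted p = 6.73e-08).

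Ctsl (ENSMUSG00000021477.10, chromosome 13) encodes cathepsin L, a broad endopeptidase that also processes other cathepsins. It ranged over 58.2, 79.2 and 102 CPM (lowest, median and highest) in naive libraries, 107, 119 and 142 CPM in demyelination, 74.6, 92.7 and 102 CPM in the knockout and 59.7, 83.1 and 111 CPM in remyelination controls. The demyelination libraries stood above all naive and knockout libraries, whereas the other 3 groups overlapped one another. Demyelination over naive was log2 0.61 (SE 0.119, adjusted p = 0.0010), and remyelination over naive was log2 0.08 (95% interval -0.16 to 0.32, adjusted p = 0.862).

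Ctsf (ENSMUSG00000083282.4, chromosome 19) encodes cathepsin F, a further cysteine endopeptidase whose human gene is mutated in a neuronal ceroid lipofuscinosis. Its lowest, median and highest levels were 19.5, 25.5 and 32.7 CPM in naive libraries, 12.2, 28.7 and 37.4 CPM in demyelination, 24.5, 30.9 and 50 CPM in the knockout and 21.6, 33.8 and 37.3 CPM in remyelination controls. All 4 groups overlapped. The log2 fold change of demyelination over naive was 0.05 (95% interval -0.32 to 0.43, adjusted p = 0.936), and its sign turned without demyelination library 4 (-0.02), demyelination library 6 (-0.0076) or naive library 5 (-0.02).

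The cysteine proteases that trim the ends of peptides split into Ctsb, Ctsh and Ctsz, which rose in demyelination, and Ctsc, which did not pass the test. The serine carboxypeptidase gene Ctsa, given further below, did not pass either. Ctsb (ENSMUSG00000021939.9, chromosome 14) encodes cathepsin B, which acts both as an endopeptidase and as a peptidyl dipeptidase, and it was the most abundant of the 10 in every group. Its lowest, median and highest levels were 275, 310 and 326 CPM in naive libraries, 385, 472 and 588 CPM in demyelination, 363, 401 and 629 CPM in the knockout and 345, 370 and 431 CPM in remyelination controls. Every library that had gone through cuprizone lay above every naive library. Demyelination over naive was log2 0.65 (SE 0.103, adjusted p = 4.09e-05), an estimate below those of Ctsh, Ctss, Ctsd and Ctsz.

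Ctsh (ENSMUSG00000032359.15, chromosome 9) encodes cathepsin H, an aminopeptidase. At 3.15, 8.38 and 10.4 CPM (lowest, median and highest) it was the lowest of the 10 by mean in naive libraries, against 14.1, 28 and 33.6 CPM in demyelination, 17.1, 20.7 and 22.9 CPM in the knockout and 15.1, 17.4 and 27.5 CPM in remyelination controls. The naive libraries were separate from all 3 cuprizone groups, which overlapped one another. Its log2 fold change of 1.72 in demyelination over naive (SE 0.200, 95% interval 1.32 to 2.13, adjusted p = 4.65e-08) was the highest estimate of the 10, with an interval that holds the estimates of Ctss and Ctsd. Remyelination over naive was log2 1.20 (SE 0.204, adjusted p = 0.000339).

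Ctsz (ENSMUSG00000016256.11, chromosome 2) encodes cathepsin Z, a carboxypeptidase that also binds integrins. Its lowest, median and highest levels were 9.13, 16.3 and 22.8 CPM in naive libraries, 23.9, 34.4 and 50.3 CPM in demyelination, 15.8, 27.6 and 44.9 CPM in the knockout and 16.9, 23.3 and 30.5 CPM in remyelination controls. Demyelination was separate from naive by a narrow gap, and the other groups overlapped both. Demyelination over naive was log2 1.25 (SE 0.214, adjusted p = 0.000153), and remyelination over naive was log2 0.70 (95% interval 0.26 to 1.14, adjusted p = 0.147). Ctsc (ENSMUSG00000030560.18, chromosome 7), whose product cathepsin C is a dipeptidyl peptidase that activates the serine proteases of granules, had medians of 8.17 CPM in naive, 11.8 CPM in demyelination, 12.2 CPM in knockout and 10.2 CPM in remyelination control libraries. Its libraries spanned 6.04 to 25.7 CPM with overlap between all groups, and demyelination over naive was log2 0.23 (95% interval -0.31 to 0.76, adjusted p = 0.777).

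Ctsd (ENSMUSG00000007891.17, chromosome 7) encodes cathepsin D, the aspartic protease that breaks down bulk protein in the lysosome. Its lowest, median and highest levels were 96.6, 117 and 134 CPM in naive libraries, 244, 349 and 433 CPM in demyelination, 178, 224 and 304 CPM in the knockout and 193, 225 and 264 CPM in remyelination controls. No cuprizone library of any of the 3 groups reached down to the naive range. Demyelination over naive was log2 1.54 (SE 0.125, 95% interval 1.29 to 1.80, adjusted p = 5.23e-12), or 2.92-fold, and remyelination over naive was log2 0.90 (SE 0.124, adjusted p = 8.4e-06).

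Ctsa (ENSMUSG00000017760.17, chromosome 2) encodes cathepsin A, or protective protein, which stabilises beta-galactosidase and neuraminidase 1 in the lysosome. Its libraries ran from 24.5 to 36.2 CPM in naive, from 25.5 to 56.6 CPM in demyelination, from 29.3 to 49.6 CPM in the knockout and from 24.5 to 47.2 CPM in remyelination controls. These ranges overlapped throughout, and demyelination over naive was log2 0.41 (95% interval 0.08 to 0.74, adjusted p = 0.226). Lgmn (ENSMUSG00000021190.15, chromosome 12) encodes legumain, which cuts after asparagine and converts cathepsins B, H and L to their 2-chain forms. It ran from 32.5 to 57.3 CPM in naive, from 38.7 to 92.5 CPM in demyelination, from 45.5 to 72.9 CPM in the knockout and from 29.4 to 68.1 CPM in remyelination controls. Demyelination over naive was log2 0.41 for Lgmn as well (95% interval 0.07 to 0.75, adjusted p = 0.243). For both genes the interval left out 0 while the p-value adjusted over all genes missed the threshold.

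The comparison of remyelination controls with naive brains asked what remained after cuprizone had been withdrawn. Of the 10 proteases, 3 (Ctsh, Ctss and Ctsd) were higher at an adjusted p under 0.05 and 0 were lower, against 0.628% of all genes called in either direction (0.451% higher and 0.177% lower), or 78 genes, which became 154 without remyelination control library 1. The median of the 10 was log2 0.29, and that of all genes was 0.002. Ctsb was higher in all 7 remyelination control libraries than in any naive library, yet its log2 fold change of 0.29 (SE 0.103) gave an adjusted p of 0.239. With the 3 called genes it made 4 of 10 whose groups did not overlap, against 0.435% of all genes tested.

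Between the stages, remyelination against demyelination, 3 of the 10 fell and 0 rose, against 0.386% of all genes called in either direction (0.201% higher and 0.185% lower). The median of the 10 was log2 -0.44, and that of all genes was 5e-04. Ctsd was lower at log2 -0.64 (SE 0.120, adjusted p = 0.00238), with 1 remyelination control library inside the demyelination range. Ctsl was lower at log2 -0.53 (SE 0.117, adjusted p = 0.0189) and Ctss at -0.52 (SE 0.118, adjusted p = 0.0245). Of these Ctss alone had groups that did not overlap, which was so for 0.169% of all genes tested. The call of Ctsl was lost without demyelination library 4 or 6 or remyelination control library 4 (adjusted p up to 0.0744). That of Ctss was lost without any of demyelination libraries 2, 3, 4 and 5 or remyelination control libraries 3, 4 and 6 (up to 0.104), so that 1 member, Ctsd, was called without demyelination library 4 or remyelination control library 4. The estimates of Ctsh (-0.52, adjusted p = 0.413), Ctsz (-0.55, adjusted p = 0.466) and Ctsb (-0.36, adjusted p = 0.165) were of like size but did not pass.

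**Figure D2:**
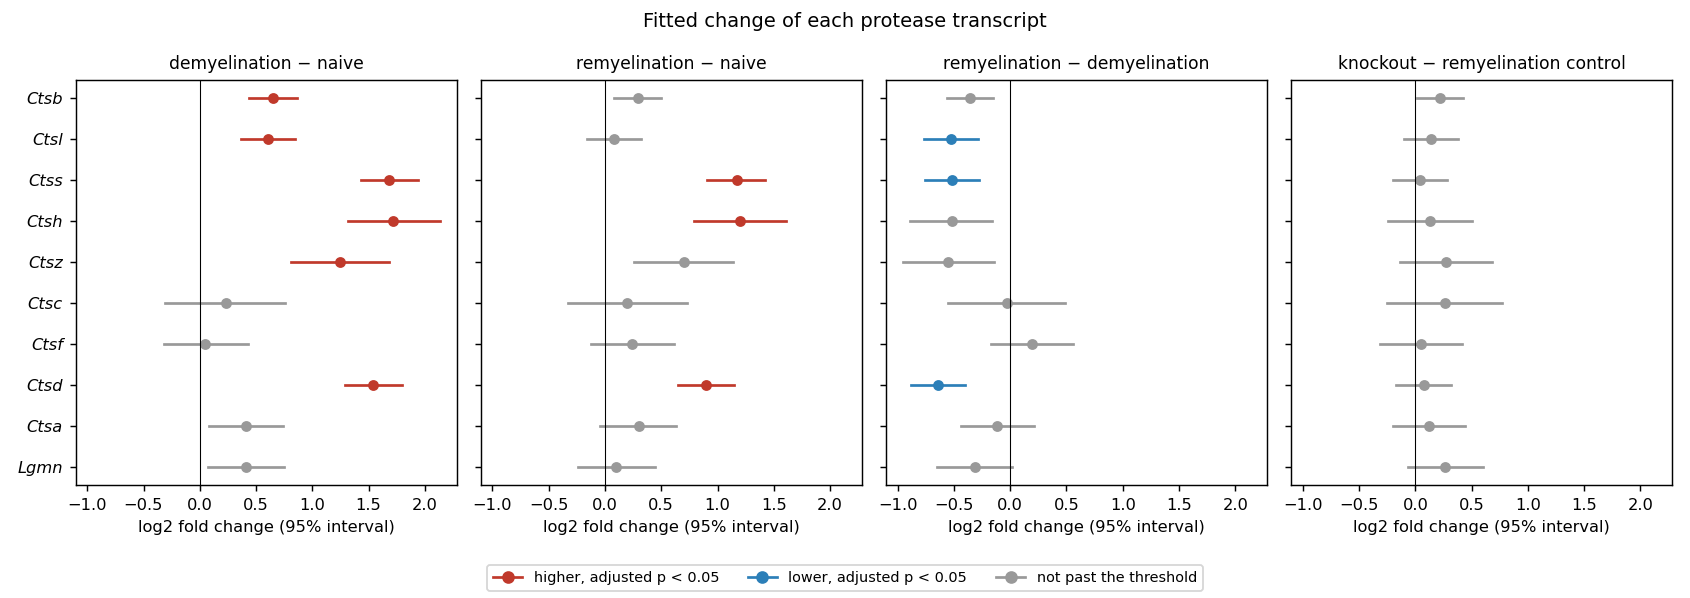
Fitted log2 fold change of each transcript in 4 comparisons, with points for the estimate and bars for its 95% interval; red and blue mark an adjusted p under 0.05. In demyelination against naive 6 of 10 are red, in remyelination against naive 3, in remyelination against demyelination 3 are blue, and in knockout against remyelination control all 10 are grey.

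The comparison of knockout with remyelination control brains asked what differed between these groups at CPZ6+1. Deletion of TNFR1, the Cx3cr1-CreER allele and any difference in tamoxifen cannot be told apart in it. None of the 10 proteases passed the test (0 at an adjusted p under 0.05 with edgeR and 0 with DESeq2, and 1 at an unadjusted p under 0.05), against 0.0483% of all genes called in either direction (0.0402% higher and 0.00805% lower), or 5 genes higher and 1 lower. With library totals 4 genes were called, all 4 higher. Estimates of the 10 were all above 0, between 0.04 and 0.27 on the log2 scale with a median of 0.14, where 50% of all genes had an estimate above 0. The sign of 2 of them, Ctss and Ctsf, turned when single libraries were left out, to as low as -0.03 for Ctss without knockout library 1 or remyelination control library 4 and to as low as -0.07 for Ctsf without knockout library 4 or remyelination control library 1.

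Ctsb gave the lowest unadjusted p, with 437 ± 96.0 CPM in knockout and 377 ± 28.3 CPM in remyelination control libraries (SD, n = 7 each) and a log2 fold change of 0.22 (95% interval 0.01 to 0.42, adjusted p = 0.649 by edgeR's test). Its knockout range overlapped that of the controls. For the abundant members the 95% intervals were narrow, from -0.17 to 0.32 for Ctsd, from -0.20 to 0.28 for Ctss and from -0.10 to 0.38 for Ctsl. They were wider for Ctsz (-0.14 to 0.68), Lgmn (-0.07 to 0.60), Ctsh (-0.24 to 0.50), Ctsa (-0.20 to 0.44), Ctsf (-0.31 to 0.41) and Ctsc (-0.25 to 0.77). These intervals bound the differences that 7 libraries a group could leave undetected and do not show that the genotypes were alike.

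Knockout brains were also set against naive brains, a comparison that shares its naive libraries with those above. There 5 of 10 proteases were higher (Ctsh at log2 1.33, Ctss at 1.21, Ctsd at 0.98, Ctsz at 0.97 and Ctsb at 0.51) and 0 were lower, against 3.24% of all genes called in either direction (1.54% higher and 1.71% lower). That background of 403 genes was 253 with library totals, 736 without knockout library 1, and between 147 and 256 without knockout library 3, 6 or 7 or naive library 2, 3 or 5, while 5 proteases were called each time. In 4 of the 5 (all but Ctsz) the groups did not overlap, against 0.563% of all genes tested. The median of the 10 was 0.48, and that of all genes was 0.0034. Ctsz and Ctsb passed here (adjusted p = 0.00775 and 0.00370) and not in remyelination control over naive. The difference between these results is the knockout against control comparison, in which neither passed.

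Summed over the 10 genes, the lowest, median and highest levels were 647, 714 and 726 CPM in naive libraries, 1089, 1299 and 1567 CPM in demyelination, 954, 1036 and 1346 CPM in the knockout and 888, 938 and 1107 CPM in remyelination controls. All naive sums lay below all others. The spread between libraries was also least in naive brains, with a coefficient of variation of 4.41%, against 14.4% in demyelination, 13.1% in the knockout and 8.09% in remyelination controls. Ctsb made up 36.5 ± 1.69% of the sum in demyelination and 44.2 ± 2.70% in naive libraries (SD, n = 7 each). Ctsd made up 25.9 ± 2.77% in demyelination and 16.9 ± 1.39% in naive libraries, and Ctss 12.9 ± 1.60% in demyelination and 7.53 ± 1.42% in naive libraries. The shares of Ctsd and Ctss in demyelination were thus above, without overlap between libraries, and those of Lgmn, at 4.97 ± 0.887% in demyelination and 7.16 ± 1.31% in naive libraries, were lower on average with overlap.

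In the order of mean levels, Ctsb and Ctsd were the first and second in every group. Ctsl was the third in naive libraries and Ctss the fourth, while in the other 3 groups Ctss came before Ctsl. In demyelination Ctsd and Ctss, Ctss and Ctsl, and Ctsl and Lgmn were separate in all libraries. Ctsb and Ctsd overlapped there (385 to 588 CPM and 244 to 433 CPM), which they did in no other group. From Lgmn downward, neighbours in the order overlapped in every group, down to Ctsc or Ctsh at the low end.

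Within a group the 10 genes did not reach their extremes in the same libraries. In demyelination, library 3 held the highest level of 4 genes (Ctsc, Ctsd, Ctss and Ctsz) and library 4 that of 3 others (Ctsb, Ctsf and Lgmn), and their sums, 1532 and 1567 CPM, were the highest of the 28. Demyelination library 1 was the lowest of its group for Ctsa, Ctsb, Ctsf and Lgmn and yet the highest for Ctsh. In the knockout, library 6, with the highest sum of its group at 1346 CPM, was highest for Ctsb, Ctsd and Lgmn and lowest for Ctsh and Ctsl. In remyelination controls, library 2 was highest for Ctsb, Ctsd, Ctss and Ctsz, with a sum of 1107 CPM. The coefficient of variation within a group ran from 6.21% (Ctsb in naive libraries) to 46.5% (Ctsc in the knockout, where library 1 reached 25.7 CPM).

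**Figure D3:**
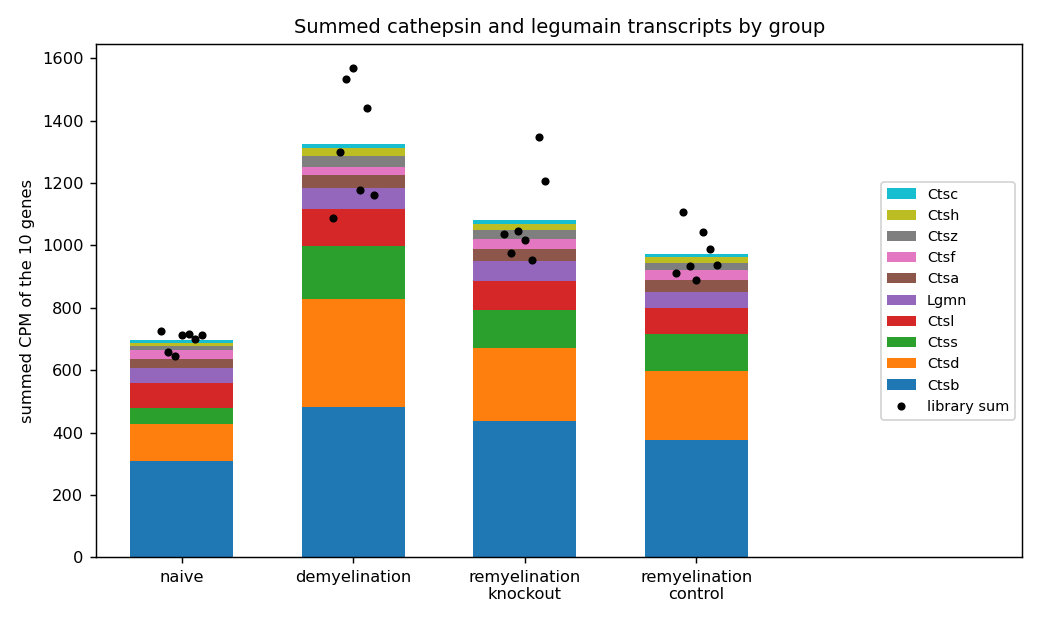
Summed CPM of the 10 genes by group, with stacked bars for the mean of each gene and black points for the sum of each library. The demyelination sums (1089 to 1567 CPM) and those of both remyelination groups lie above the naive sums (647 to 726 CPM), and Ctsd and Ctss take up a larger share of the bar in demyelination than in naive libraries.

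The other genes of lysosomal proteolysis were read from 7 lists of 54 genes, of which 42 were tested. In demyelination over naive 2 of the 42 were higher and 0 lower, against 1.30% and 0.700% of all genes tested. The 42 had a median log2 fold change of 0.06. The 2 were the cystatin Cst7 and the progranulin gene Grn. No member passed of the other lysosomal peptidases (6 tested of 7, median 0.13) or of acidification, the subunits of the proton pump (16 tested of 17, median 0.02). The same held for sorting to the lysosome (8 tested, median 0.08) and for the regulators Tfeb, Tfe3 and Mitf (3 tested of 4, median -0.02). Of the 5 other cathepsin genes Ctso alone was tested (log2 0.06, adjusted p = 0.933). Ctsk had 21 counts in naive, 26 in demyelination, 44 in knockout and 37 in remyelination control libraries, and Ctsg had 0 counts in all.

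Cst7 encodes cystatin F, an inhibitor that reaches lysosomes of immune cells and acts on cathepsins C, H and L among others. It had 186 counts over the 7 demyelination libraries, 63 in the knockout, 79 in remyelination controls and 1 in naive libraries. The ratio to naive was 176 in demyelination (95% counting interval 31.2 to 6994), 57.3 in the knockout (9.91 to 2297) and 66.2 in remyelination controls (11.5 to 2649). Cst7 was thus all but unread in naive brains and present after cuprizone, at a mean level below that of all 10 proteases in both remyelination groups and of all but Ctsc in demyelination. In remyelination controls over demyelination it was lower at log2 -1.43 (SE 0.320, adjusted p = 0.0202), a call lost without demyelination library 3 or 6 or remyelination control library 4, 6 or 7 (adjusted p up to 0.0708). The abundant inhibitor Cst3, cystatin C, averaged 1553 ± 329 CPM in demyelination and 1235 ± 136 CPM in naive libraries (SD, n = 7 each), a log2 fold change of 0.33 that did not pass (adjusted p = 0.121).

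Grn encodes progranulin, a precursor that lysosomal proteases, cathepsin L among them, cut to granulins and that binds cathepsin D. Its lowest, median and highest levels were 15.8, 34.2 and 47.5 CPM in demyelination and 6.51, 16.4 and 25.2 CPM in naive libraries, ranges that overlapped. Grn was higher at log2 1.21 (SE 0.242, adjusted p = 0.00146). Psap, which encodes prosaposin, a substrate of cathepsin D, averaged 1548 ± 426 CPM in demyelination and 1317 ± 194 CPM in naive libraries and did not pass (log2 0.23, adjusted p = 0.480). In knockout over naive Nagpa, the uncovering enzyme of the mannose 6-phosphate tag, was called at log2 0.83 (SE 0.239, adjusted p = 0.0431). This call was lost in 15 of 21 alternative fits (adjusted p up to 0.0894). Among them were library totals (0.0533), no filter (0.0536), the 2 groups alone (0.0536) and 11 of 14 fits with a library left out.

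**Figure D4:**
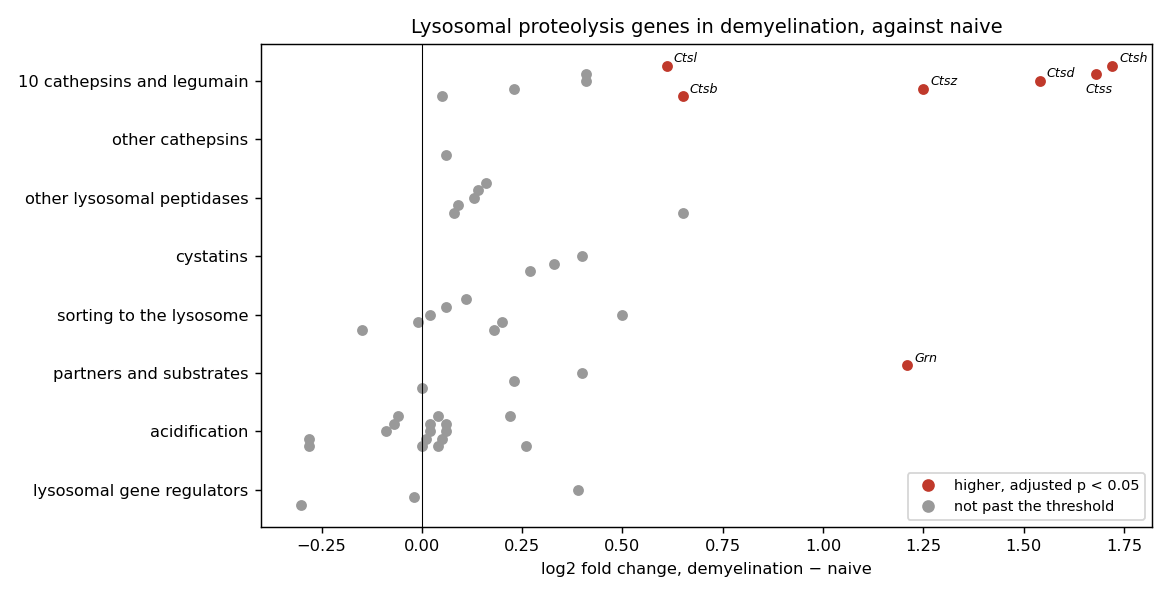
Log2 fold change of demyelination over naive for each tested gene of the 10 proteases and 7 lists of lysosomal proteolysis, with points that pass the test in red and the others in grey; Cst7, which had 1 count in naive libraries, is left out. Red points outside the proteases are confined, among the genes drawn, to Grn.

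Markers of microglia, like the proteases, included genes called higher in each comparison with naive brains. Of 17 marker genes 15 were tested, and 9 were higher in demyelination over naive (1.30% of all genes tested). In remyelination over naive 7 were higher (0.451% of all genes). In knockout over naive 7 were higher and 1 (P2ry12, edgeR adjusted p = 0.0457) lower (1.54% and 1.71% of all genes). Among the higher markers were Tyrobp, Fcrls and C1qc, at log2 2.21, 1.75 and 1.68 in demyelination over naive. In remyelination over demyelination 0 of the 15 were called, with a median of -0.32 against -0.44 for the proteases. In knockout over remyelination control 1 was lower, with a median of -0.09 against 0.14 for the proteases. Their summed level ran from 447 to 622 CPM in demyelination, from 340 to 460 CPM in the knockout, from 380 to 470 CPM in remyelination controls and from 222 to 306 CPM in naive libraries. The markers P2ry12 (log2 -0.49, adjusted p = 0.256), Tmem119 (-0.18, adjusted p = 0.830), Siglech (-0.21, adjusted p = 0.802) and Sall1 (0.18, adjusted p = 0.832) did not pass in demyelination over naive. The part of microglial number or state in the protease levels was not tested, and in whole-brain RNA more cells of a type and more RNA per cell cannot be told apart.

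Set against the summed microglial markers of the same library, the 10 proteases had a median of 250% in demyelination (226 to 260%) and 254% in naive libraries (214 to 299%). For the knockout the median was 280% (247 to 328%), and for remyelination controls 232% (208 to 247%). Demyelination and naive libraries overlapped on this ratio, and the knockout range began where that of the remyelination controls ended. The marker sum includes Cx3cr1, which averaged 25.8 CPM in knockout and 48.4 CPM in remyelination control libraries. Its part in the difference between these ranges was not tested. Ctss was at 26.6 to 39.4% of the marker sum in demyelination and at 13.7 to 23.3% in naive libraries, without overlap. Ctsd was at 51.8 to 70.5% in demyelination and at 35.5 to 52.9% in naive libraries, and Lgmn at 8.04 to 14.9% in demyelination and at 13.5 to 24.0% in naive libraries, both with a small overlap. These ratios are descriptions, and they carry the change of the markers as much as that of the proteases.

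**Figure D5:**
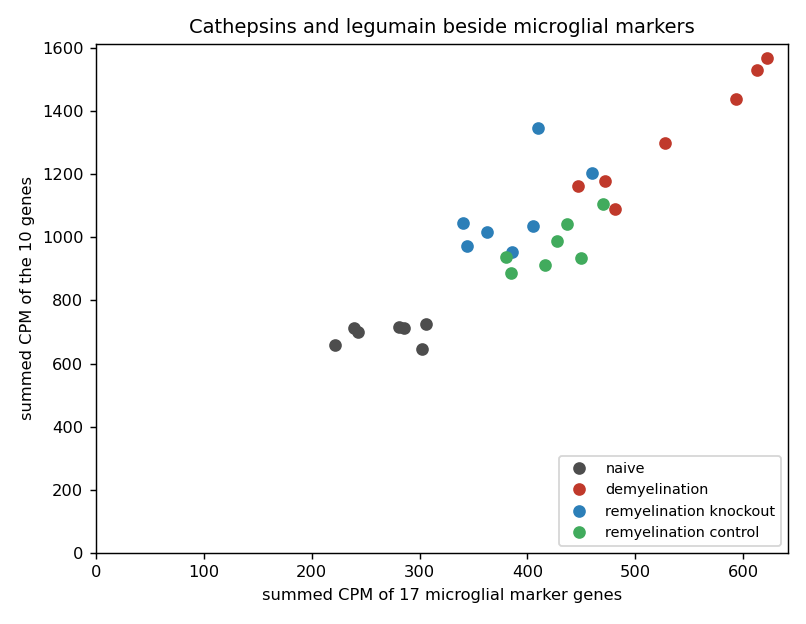
Summed CPM of the 10 proteases against summed CPM of 17 microglial marker genes, 1 point for each of the 28 libraries. Naive libraries (222 to 306 CPM of markers) lie at the lower left and demyelination libraries (447 to 622 CPM of markers) reach furthest to the upper right, and both remyelination groups overlap the demyelination libraries on both axes.

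In knockout against remyelination control brains the marker that was called was Cx3cr1, at 25.8 ± 11.7 CPM in knockout and 48.4 ± 7.73 CPM in remyelination control libraries (SD, n = 7 each), a log2 fold change of -0.89 (adjusted p = 0.0365). In the commonly used mice of this name the recombinase is inserted into the Cx3cr1 gene itself. The call was lost with library totals (adjusted p = 0.0816), with the 2 groups alone (0.323), with replicate number entered as a block (0.0568) and without single libraries (up to 0.174). It was lost without knockout library 2, 3, 4 or 6 or remyelination control library 1, 2, 3, 5 or 6.

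Markers of blood and border myeloid cells stayed near the floor. Of the 11 genes Mrc1 alone was tested (log2 -0.89 in demyelination over naive, adjusted p = 0.294), and their sum ran from 4.49 to 25.1 CPM over all libraries. Ly6g had 0 counts in every library, Ccr2 had 0 in naive libraries and Ly6c2 had 0 in remyelination controls. F13a1 had 28 counts in naive, 40 in demyelination, 67 in knockout and 49 in remyelination control libraries. In the same order S100a8 had 17, 8, 17 and 44, S100a9 had 10, 6, 12 and 31, and Plac8 had 12, 11, 11 and 5. Among other cell types, all 10 oligodendrocyte markers fell in demyelination over naive (Mal by 2.01 on the log2 scale) and 9 rose in remyelination over demyelination. Of all genes tested 0.700% were called lower in the first of these comparisons and 0.201% higher in the second. The astrocyte gene Gfap rose in demyelination (log2 1.82, adjusted p = 9.04e-09) as 1 of 9 astrocyte markers, and was also higher in remyelination over naive (1.33, adjusted p = 4.13e-05) and in knockout over naive (1.59, adjusted p = 1.42e-06). Of the red blood cell genes Hbb-bs was higher in remyelination over naive (log2 0.65, adjusted p = 0.0277). Hba-a1 and Hba-a2 were higher in remyelination over demyelination (0.91 and 0.83). In 21 alternative fits each, the call of Hbb-bs was lost in 5, that of Hba-a1 in 13 and that of Hba-a2 in 2. Hba-a1 did not pass with library totals (adjusted p = 0.0674) or the DESeq2 test (0.0798). In knockout over naive the 4 haemoglobin genes, those tested of 5 red blood cell genes, were higher (log2 0.82 to 1.21). Ttr was higher there (0.56) as 1 of 3 choroid plexus markers tested, whose median was -0.06. Gad2 was lower (-0.38) as 1 of 10 neuron markers, whose median was -0.04. Of all genes tested 1.54% were called higher and 1.71% lower in this comparison. The call of Ttr was lost in 5 of 21 alternative fits and that of Gad2 in 9 of 21. The part of these cell types in the protease levels was not tested.

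The genes whose pattern was most like the mean of the 10 proteases, by Pearson r of log2 CPM over the 28 libraries, were Apoe (0.92), Gfap (0.91), Mt2 (0.90), C1qc (0.89), Irf8 (0.88), Itgax (0.88), Fcrls (0.86), Cd68 (0.86), Vim (0.86) and Cst7 (0.85). These values describe libraries that share their groups. Single proteases differed in their nearest gene. Ctss and Ctsd were both nearest to Cst7 (0.93 and 0.92), Ctsh to Cd68 (0.86), Ctsb to Laptm5 (0.85) and Ctsz to C1qc (0.84). For Ctsl it was Gusb (0.78), and for Ctsa it was Smpd1 (0.82), both of which encode lysosomal hydrolases. Lgmn was nearest to Mrpl10 (0.78), Ctsf to Ubald2 (0.77) and Ctsc to Tent2 (0.66), genes that did not pass the test in demyelination over naive.

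Some of these genes overlap others in the GENCODE M21 annotation, and the strand setting of the counting is not given in the sources used here. Ctsb overlaps Fdft1 on the opposite strand (log2 -0.22 in demyelination over naive, adjusted p = 0.429), and Ctsz overlaps Nelfcd (-0.07, adjusted p = 0.947). Ctsa overlaps Neurl2 and Pltp, which had 93 and 178 counts over all libraries. Ctsl and Ctss overlap transcripts of at most 10 counts and Ctsd 1 of 0 counts, and Ctsf, Ctsh and Lgmn overlap none. Ctsc overlaps a non-coding gene, Gm26522, on the opposite strand.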

How the data were processed

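Each deposited table holds the RSEM gene results of 1 library, and the expected counts in it, estimates of reads per gene that need not be whole, are what the authors deposited, per the file headers. Per the submitters' processing notes, the tools were edgeR, RSEM, STAR, cutadapt and FastQC, and the build was GRCm39. The sources used here give neither their roles, versions and settings nor the strandedness. Between 96.59 and 97.69% of values per library were whole within 0.005, and all were rounded. Library totals were 1695221 to 2417170 in demyelination, 1531729 to 2986509 in knockout, 1864559 to 3137262 in remyelination control and 1522928 to 2150503 in naive libraries. Symbols were taken from GENCODE M21 by identifier and matched 52081 genes. The smallest chi-square per degree of freedom between replicates was 2.55, so none was counted as a duplicate.

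Counts were normalised by TMM, filtered by filterByExpr and tested by quasi-likelihood (edgeR 4.0.16 under R 4.3.3) in 1 fit to the 28 libraries, a step tested on simulated data. Benjamini-Hochberg adjustment ran over 12424 genes, and a gene was called below 0.05. Levels are CPM on TMM-scaled library sizes, and errors are SDs over 7 libraries. Alternatives were size factors and the Wald test of DESeq2 1.42.0, library totals, no filter, the 2 groups alone, the replicate number as a block, each library left out in turn, and naive 1 and knockout 1 left out together. Counting intervals and floors cover counting error only. The labels give no batch.

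Named were all 10 proteases, the genes of other lists past the threshold (at most 4 by p in each list and comparison), and for likeness the 10 genes closest to the mean of the proteases and the 1 closest to each. P2ry12, Tmem119, Siglech, Sall1, Cst3, Psap and genes with few counts were named after their values were seen. The value of 1 marker gene that this rule names is not reported here. The members and lists were chosen with earlier results of these data known.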

Additional observations from a re-analysis of the deposited data

Results flagged for a closer look

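A library stood apart from the other 6 of its group, by the share of the group's range that its gap to the nearest library takes up, in 4 of 44 groups of values examined, where chance gives about 1 in 20. Ctsc was at 25.7 CPM in knockout library 1, with the nearest at 13.8 CPM. Ctsf was at 12.2 CPM in demyelination library 1, with the nearest at 26.9 CPM. Ctsh was at 14.1 CPM in demyelination library 7, below the nearest at 25.8 CPM, and at 27.5 CPM in remyelination control library 4, above the nearest at 19.8 CPM. Leaving these libraries out changed no call of the 3 genes in the comparisons they entered.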

How the results depend on the processing

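The counts of proteases called (6 in demyelination over naive, 3 in remyelination over naive, 3 in remyelination over demyelination, 0 in knockout over remyelination control and 5 in knockout over naive) were equal under DESeq2's size factors, library totals, the DESeq2 test, no filter, the 2 groups alone and without naive 1 and knockout 1. With a library left out they ranged from 6 to 6, 3 to 3, 1 to 3, 0 to 0 and 5 to 5. The replicate block gave 6, 3, 3, 0 and 5 as well and changed 0 of 50 protease results. Same-numbered libraries correlated between -0.131 and 0.302 in their deviations, and at most 3 of 7 correlated best with their own number, so the numbers were not taken as a pairing. Of 1050 alternatives of single proteases 1026 kept direction and side of the threshold, 10 lost the call, all in remyelination over demyelination, and 14 changed sign, all of estimates that did not pass. With a library left out, log2 fold changes ran from -0.02 to 0.18 for Ctsf in demyelination over naive, from -0.0029 to 0.15 for Ctsl in remyelination over naive, from -0.15 to 0.06 for Ctsc in remyelination over demyelination, and in knockout over remyelination control from -0.07 to 0.12 for Ctsf, from -0.03 to 0.09 for Ctss and from -0.15 to 0.01 for Tnfrsf1a. Without naive 1 and knockout 1 that of Ctss was -0.03. The cause was not tested. Counts over all genes moved more. In remyelination over naive 78 genes became 130 with the DESeq2 test, 122 with no filter and 147 with the block, and 58 to 154 with a library left out (154 without remyelination control 1). In remyelination over demyelination 48 became 73 with the DESeq2 test. In knockout over remyelination control 6 became 11 with the DESeq2 test and 28 with no filter. In knockout over naive 403 became 253 with library totals, 608 with the block, 644 without naive 1 and knockout 1, and 147 to 736 with a library left out (147 without knockout 7, 736 without knockout 1). Summed protease medians under other scalings or without naive 1 and knockout 1, alternatives chosen after seeing the data, were 1299 to 1357 CPM in demyelination, 1029 to 1044 CPM in the knockout, 936 to 941 CPM in remyelination controls and 707 to 714 CPM in naive libraries. Depth limits the low members most, with Ctsc at 123 and Ctsh at 110 counts over the 7 naive libraries.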
